A study of Mus musculus with 12 samples.

Results

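Zfp42, Nr5a2 and Tcl1 are genes used as markers of the naive state, the condition of mouse embryonic stem cells that resembles the epiblast before implantation. The 3 genes were taken as every probe whose only symbol in the platform annotation was Zfp42, Nr5a2 or Tcl1, which gave 1 probe for each gene among 33012 probes, of which 14411 had a single symbol and together named 13840 genes. They were chosen by their quantile-normalised levels in these same arrays, where they were among the genes that separate the groups, so their levels and differences are given as a description without a test. Which transcripts each probe binds beyond the annotated gene is not given in the sources used here.

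Pluripotent cells of the mouse embryo pass from a naive state before implantation to a primed state in the post-implantation epiblast, and the naive state is held in culture by leukaemia inhibitory factor (LIF), STAT3 and a group of transcription factors. Zfp42 encodes REX1, a zinc-finger protein related to the transcription factor YY1 and long used to mark undifferentiated stem cells. Nr5a2 encodes LRH-1, an orphan nuclear receptor known in the mouse to bind regulatory DNA of Pou5f1, the gene of the pluripotency factor OCT4. Tcl1 encodes a small protein that binds AKT kinases and raises their activity.

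Total RNA of mouse cells was measured on 12 Applied Biosystems 1-colour arrays, 3 for each of 4 groups. The ES group was embryonic stem cells. The cEpi group was epiblast dissected from embryos of day 5.5 to 7.5 and cultured, in conditions that its labels do not describe. The rEpiES groups were ES-like cells reprogrammed from such epiblast and sampled at passage 4 and at passage 24. All cells share a parentage in the labels: fathers carried the Oct4-△PE-EGFP transgene, and mothers were 129/sv or ROSA 129/Sv. The transgene is a green fluorescent reporter named after OCT4, the product of Pou5f1, and need not follow Pou5f1 activity in every state. The ES labels carry the same embryo text, day 5.5 to 7.5 included, and do not say how the ES cells were derived. For rEpiES, epiblast cells were grown on mitomycin-treated mouse embryonic fibroblast feeders in medium with 20% serum and 1000 U/ml LIF. After 14 to 35 days of culture, colonies holding a few fluorescent cells were picked with needles, so both rEpiES groups were selected for the reporter. Nothing in the labels tells whether arrays of a group stand for separate lines or cultures. The p-values given for other genes therefore measure the spread between arrays, which may be technical.

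The promoters of the 3 genes are shown because they are the regulatory DNA nearest to each start site. Each runs from 250 bases before to 50 bases after the start, 5′ to 3′ along the gene's own strand, and comes from RefSeq on build GRCm38.p6. Zfp42 has chr8:43306960-43307259, Nr5a2 has 2 start sites with chr1:136960399-136960698 and chr1:136953581-136953880, and Tcl1 has chr12:105222688-105222987, all on the minus strand. Capitals mark matches to 8 motifs searched on both strands.

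Zfp42: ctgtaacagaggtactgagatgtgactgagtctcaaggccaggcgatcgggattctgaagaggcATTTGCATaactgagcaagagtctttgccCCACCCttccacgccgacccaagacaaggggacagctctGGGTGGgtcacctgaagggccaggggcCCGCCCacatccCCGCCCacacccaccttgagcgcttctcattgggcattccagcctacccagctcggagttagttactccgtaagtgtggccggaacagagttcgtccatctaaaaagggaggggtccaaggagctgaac

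Nr5a2, first start site: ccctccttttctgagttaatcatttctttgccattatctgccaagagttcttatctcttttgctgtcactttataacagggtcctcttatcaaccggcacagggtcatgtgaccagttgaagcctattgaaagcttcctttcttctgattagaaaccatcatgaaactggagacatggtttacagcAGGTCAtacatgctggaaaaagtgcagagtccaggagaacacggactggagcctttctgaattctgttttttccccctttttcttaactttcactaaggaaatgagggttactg

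Nr5a2, second start site: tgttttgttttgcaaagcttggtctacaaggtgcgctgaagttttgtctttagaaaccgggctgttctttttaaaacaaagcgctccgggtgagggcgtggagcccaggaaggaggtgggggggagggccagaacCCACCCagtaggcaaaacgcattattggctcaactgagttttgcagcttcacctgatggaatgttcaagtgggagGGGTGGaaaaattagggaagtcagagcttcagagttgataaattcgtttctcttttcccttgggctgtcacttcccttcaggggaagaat

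Tcl1: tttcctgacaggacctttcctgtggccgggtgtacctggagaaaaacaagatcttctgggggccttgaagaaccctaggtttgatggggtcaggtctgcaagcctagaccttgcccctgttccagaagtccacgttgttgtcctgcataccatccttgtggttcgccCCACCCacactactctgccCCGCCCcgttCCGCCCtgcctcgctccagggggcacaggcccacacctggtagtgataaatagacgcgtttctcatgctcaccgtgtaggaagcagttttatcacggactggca

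In the Zfp42 promoter the POU octamer ATGCAAAT, the type of site bound by OCT4, matched on the opposite strand as ATTTGCAT, 186 bases before the start. Only 1.74% of 32851 promoters of the same length held that octamer. The GC box GGGCGG of KLF and SP factors matched at 91 and 79 bases before the start of Zfp42 and at 64 and 54 bases before the start of Tcl1, and 35.7% of promoters held it. The CACCC box CCACCC, also read by KLF factors, matched at 157 and 118 bases before the start of Zfp42, at 83 bases before that of Tcl1, and at 115 and 40 bases before the second start of Nr5a2, against 31.5% of all promoters. The first Nr5a2 promoter held the nuclear receptor core AGGTCA 64 bases before its start, which 16.3% of promoters held. The other motifs were the SOX motif AACAATG (in 3.78% of promoters), the extended nuclear receptor motif CAAGGTCA (1.56%), which contains AGGTCA, the STAT motif TTCCNGGAA (1.15%) and the YY1 motif AAGATGGC (2.75%), and none of them matched in these 4 windows. The percentage of G and C bases was 57.7% for Zfp42, 42% and 49% for the Nr5a2 windows and 56.7% for Tcl1. A match describes letters only, and the arrays did not measure binding.

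Levels below are the authors' quantile-normalised values on a log2 scale, where a difference of 1 is 2-fold, and a probe counts as detected on an array at a signal-to-noise score of 3 or more. Detected probes numbered 12061 to 13827 per ES array, 14329 to 15034 at passage 4, 14422 to 15637 at passage 24 and 15726 to 16537 in cEpi. The arrays of a group correlated with each other over all probes at 0.938 to 0.981, and the median SD of a tested probe was 0.24 in ES against 0.09, 0.10 and 0.11 in cEpi, passage 4 and passage 24. Files of cEpi and passage 4 share a layout that differs from that of ES and passage 24. The differences of passage 4 from cEpi and of passage 24 from ES lie within a layout, while in the other 4 comparisons the layout cannot be told apart from the group. Pou5f1, Sox2, Sall4, Utf1 and Tdgf1, 5 genes of pluripotent cells, and the epiblast genes Fgf5, Otx2 and Pou3f1 were detected on all 3 arrays of every group. Their detection therefore does not tell one culture's label from another.

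Zfp42 was bright in all 4 groups and lowest in cEpi. Its log2 level was 17.47, 17.55 and 17.89 on the ES arrays and 13.50, 13.36 and 13.74 on the cEpi arrays. It was 18.46, 18.25 and 18.38 at passage 4 and 18.56, 18.58 and 18.63 at passage 24. The cEpi arrays lay below every other array, and both rEpiES groups lay above ES with no overlap. Such separation was common. Of all tested probes, 30.4% were lower in cEpi than in ES without overlap. Higher than cEpi without overlap were 36.7% at passage 4 and 40.2% at passage 24. In either direction, 58.1% did not overlap between passage 4 and ES, and 61% between passage 24 and ES. Zfp42 was still detected on all 3 cEpi arrays, with signal-to-noise scores of 66.9, 35.2 and 45.6. The means were 17.64 ± 0.22 (SD, n = 3) in ES, 13.53 ± 0.19 in cEpi, 18.36 ± 0.11 at passage 4 and 18.59 ± 0.04 at passage 24.

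Nr5a2 was brightest in ES and near the detection limit in cEpi. Its level was 14.47, 14.32 and 14.45 on the ES arrays and 9.26, 8.20 and 9.32 on the cEpi arrays. It was 13.53, 13.48 and 13.58 at passage 4 and 13.04, 13.21 and 13.17 at passage 24. No array of any group overlapped another group, and the order ran from ES through passage 4 and passage 24 to cEpi. The shares of all tested probes given for Zfp42 apply here too, and 58.2% did not overlap between the passages in either direction. In cEpi the probe passed detection on 2 of 3 arrays, with scores of 3.0, 0.2 and 4.3, and replicate 2 was the low array. The means were 14.41 ± 0.08 in ES, 8.93 ± 0.63 in cEpi, 13.53 ± 0.05 at passage 4 and 13.14 ± 0.09 at passage 24.

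Of the 3 genes, Tcl1 had the rEpiES level farthest above ES. Its level was 11.19, 11.42 and 11.76 on the ES arrays and 8.80, 8.76 and 9.04 on the cEpi arrays. It was 14.26, 14.32 and 14.20 at passage 4 and 14.39, 14.26 and 14.25 at passage 24. The cEpi probe was not detected on any of the 3 arrays, with scores of 0.8, 0.4 and 1.3, so its level there is uncertain. On the ES arrays it passed detection with scores of 6.33, 3.74 and 8.96, against 23.9 to 48.6 on the rEpiES arrays. ES lay between cEpi and both rEpiES groups without overlap, and the arrays of passage 4 and passage 24 overlapped. The shares of all tested probes given for Zfp42 apply to this separation as well. The means were 11.46 ± 0.29 in ES, 8.87 ± 0.15 in cEpi, 14.26 ± 0.06 at passage 4 and 14.30 ± 0.08 at passage 24.

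**Figure D1:**
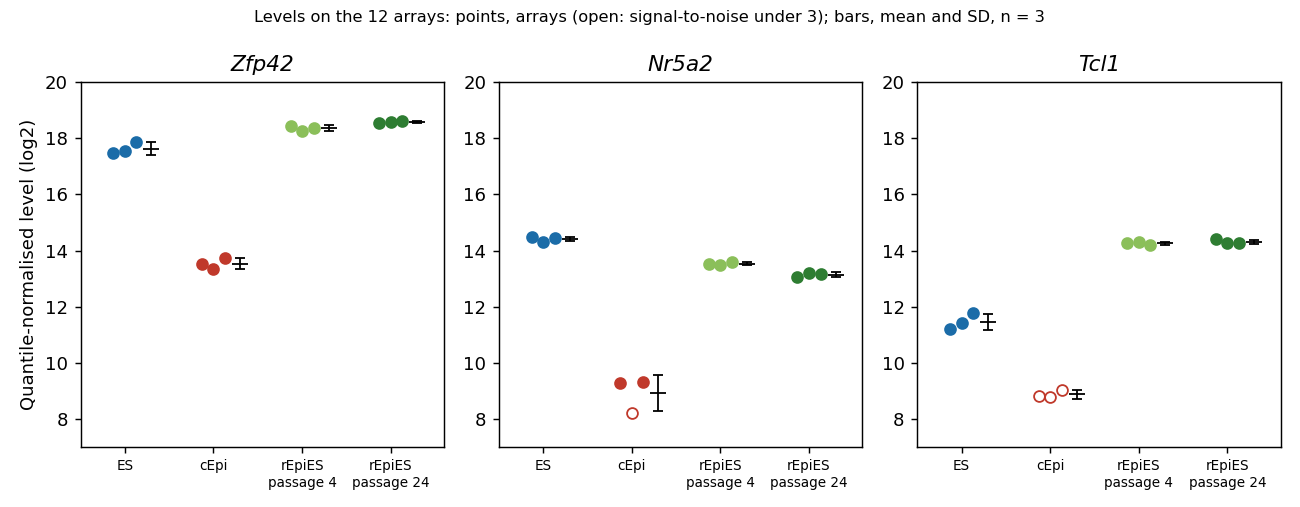
Quantile-normalised log2 level of Zfp42, Nr5a2 and Tcl1 (vertical axis) on each of the 12 arrays in the 4 groups (horizontal axis), with points for arrays, open where the signal-to-noise score was under 3, and bars for the mean and SD of 3 arrays. The cEpi points are lowest for each gene, at 13.36 to 13.74, 8.20 to 9.32 and 8.76 to 9.04, and Tcl1 in ES, at 11.19 to 11.76, lies between cEpi and both rEpiES groups.

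The signals before normalisation ran the same way. Zfp42 had signals of 146768, 149032 and 272285 in ES, 17262, 14349 and 20445 in cEpi, 363268, 318094 and 379799 at passage 4, and 428428, 438411 and 416618 at passage 24. For Nr5a2 they were 16821, 14745 and 25088 in ES, 645, 270 and 739 in cEpi, 11645, 11560 and 13290 at passage 4, and 8968, 10367 and 9176 at passage 24. For Tcl1 they were 1720, 1899 and 3482 in ES, 420, 428 and 566 in cEpi, 19031, 20213 and 20300 at passage 4, and 23702, 21735 and 19947 at passage 24. ES replicate 3 had the highest signal of its group for each of the 3 genes, a gap that was smaller after quantile normalisation. A deposited quality code of unstated meaning was 64 for Zfp42 on passage 24 replicate 2 and on cEpi replicate 3. It was 1 for Tcl1 on cEpi replicates 1 and 2 and for Nr5a2 on cEpi replicate 2, and 0 for the other readings of these genes.

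The comparison of cEpi with ES asks how cultured epiblast and embryonic stem cells differ. All 3 genes were lower in cEpi, with no overlap between arrays, as were 30.4% of the 15235 tested probes. Nr5a2, detected on 2 of 3 cEpi arrays, differed by -5.49 on the log2 scale (44.9-fold), the negative difference of rank 19 among the tested probes, and Zfp42 by -4.10 (17.2-fold), rank 54. Tcl1 was 6.03-fold lower by measured means of 11.46 in ES and 8.87 in cEpi, where its probe was not detected. That fold, and those given below as "at least" for probes undetected in the dimmer group, are not firm minima. These arrays measured RNA in bulk, so fewer cells that express a gene and less of its RNA per cell cannot be told apart.

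Passage 4 against cEpi and passage 24 against cEpi ask what distinguishes the reprogrammed cells from their cell type of origin. At passage 4 the 3 genes were higher than in cEpi without overlap, as were 36.7% of tested probes. Zfp42 stood at a log2 difference of 4.83 (28.4-fold), rank 7 among all tested probes, and Nr5a2 at 4.61 (24.3-fold, rank 15). Tcl1 was 42-fold higher by measured means of 14.26 and 8.87, the latter from arrays where its probe was not detected. At passage 24 they were again higher without overlap, as were 40.2% of tested probes. Zfp42 stood at 5.06 (33.3-fold, rank 47) and Nr5a2 at 4.22 (18.6-fold, rank 104). Tcl1 was 43.3-fold higher by measured means of 14.30 and 8.87, with the same limit. The 2 comparisons share the cEpi arrays and are not independent of each other.

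Against ES, the 3 genes lay on different sides. Zfp42 was above its ES level by 0.73 (1.65-fold) at passage 4 and by 0.96 (1.94-fold) at passage 24. Tcl1 was above it by 2.80 (6.97-fold) and 2.85 (7.19-fold), from an ES level with the low signal-to-noise scores given above. Nr5a2 was below it, with differences of -0.88 (1.85-fold) at passage 4 and -1.27 (2.42-fold) at passage 24. None of these 6 differences had overlapping arrays, which held in either direction for 58.1% of tested probes at passage 4 and 61% at passage 24. Levels were also expressed as a share of the log2 distance from cEpi to ES, where 100% is the ES level. Passage 4 and passage 24 stood at 118% and 123% for Zfp42 and at 83.9% and 76.8% for Nr5a2. The share of Nr5a2 rests on a cEpi level detected on 2 of 3 arrays. Both shares move with the scaling, as the differences below do. No such share is given for Tcl1, whose probe was not detected in cEpi.

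Between passage 4 and passage 24 the levels lay close together. Nr5a2 was lower at passage 24 by a log2 difference of -0.39 (1.31-fold) and Zfp42 higher by 0.23 (1.17-fold), both without overlap, as were 58.2% of tested probes in either direction. The Zfp42 gap between the nearest arrays was 0.10. Tcl1 differed by 0.04 (1.03-fold), with overlapping arrays. The order of group means, passage 24 over passage 4 over ES over cEpi, was shared by Zfp42 and Tcl1 with 7.41% of tested probes, and the order of Nr5a2, ES over passage 4 over passage 24 over cEpi, by 4.46%. For Tcl1 the step from passage 4 to passage 24 in that order lies within the spread of its arrays.

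Among themselves, Zfp42 and Tcl1 differed by a root mean square of 0.821 in log2 pattern over the 12 arrays (Pearson r 0.932), Zfp42 and Nr5a2 by 0.845 (r 0.919), and Nr5a2 and Tcl1 by 1.63 (r 0.727). Each pattern was centred on the gene's own mean, and the arrays share 4 groups, so these values describe likeness and carry no p.

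The genes with the most similar pattern were found with the same distance among 8807 genes. Nearest to Zfp42 were Pycard, an inflammasome adaptor (0.256), Mael, a germ-line piRNA factor (0.271), Pla2g1b, a secreted phospholipase (0.279), Tdrd12, another piRNA factor (0.292), and Dppa5a, a marker of pluripotent cells (0.308). Triml1, Morc1 and Dppa2 followed at 0.339, 0.385 and 0.426, with r from 0.978 to 0.995 over the 8 genes. Mael lay at 12.52 in ES, 8.37 in cEpi with no array detected, 13.08 at passage 4 and 13.36 at passage 24. Dppa5a lay at 19.93, 16.07, 20.62 and 20.43 in the same order of groups.

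Nearest to Nr5a2 were Dppa3, a maternal and germ-line factor (0.413), Dppa2 (0.516), Dnmt3l, a cofactor of DNA methyltransferases (0.543), Morc1 (0.575) and Tdrd12 (0.675). Gdf3, a TGF-beta family ligand (0.694), Calml4 (0.710) and Mylpf (0.714) completed the 8. Dppa3 lay at 16.62 in ES, 11.35 in cEpi, 16.02 at passage 4 and 16.03 at passage 24. Its ES level, like that of Nr5a2, was above both rEpiES groups.

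The nearest gene to Tcl1 lay farther from it than the nearest genes to Zfp42 and Nr5a2 did from theirs. Nearest were Dppa4, a nuclear partner of Dppa2 (0.526), Rex2, a zinc-finger gene distinct from Zfp42 (0.650), Nphs1 (0.681), Pycard (0.685) and Triml1 (0.716), then Fam25c (0.725), Enox1 (0.765) and Dazl, a germ-line RNA-binding protein (0.769). Dppa4 lay at 14.46 in ES, 11.13 in cEpi, 15.82 at passage 4 and 16.58 at passage 24, with ES between cEpi and the rEpiES groups as for Tcl1. Dazl was detected on 2 of 3 ES arrays, on no cEpi array and on all rEpiES arrays. Ranking by Pearson r instead of distance kept 1 of the 8 genes for Zfp42, and 0 of 8 for Nr5a2 and for Tcl1, so these names depend on the measure of likeness.

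**Figure D2:**
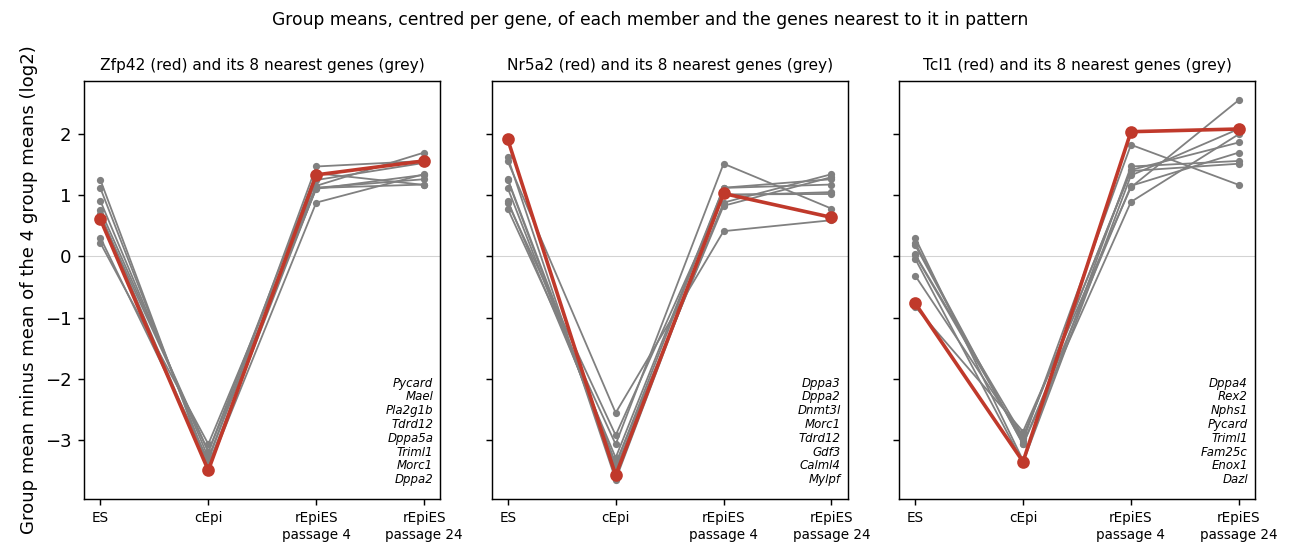
Group mean minus the mean of the 4 group means, on the log2 scale (vertical axis), in the 4 groups (horizontal axis) for each of the 3 genes (red) and the 8 genes nearest to it in pattern (grey). The lines of Zfp42 and its nearest genes lie close together, at distances of 0.256 to 0.426, while Tcl1, at 0.526 to 0.769, lies below most of its nearest genes in ES.

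Other naive genes formed the first list set beside them: 12 of 20 listed had a probe and all 12 were tested. Differences were tested with limma over all 15235 probes and called at a Benjamini-Hochberg adjusted p under 0.05. In cEpi against ES, 10 of the 12 were lower and 1 was higher, against 29.6% and 36.6% of all tested probes, with a median log2 difference of -1.35 against 0.15 over all tested probes. Dppa3 fell by 5.27 (SE 0.14). Tfcp2l1, a LIF-responsive transcription factor, fell by 3.78 (SE 0.14, at least 13.8-fold), as it was detected on no cEpi array. Nr0b1, an orphan nuclear receptor also known as DAX1, fell by 3.04 (SE 0.06) and Gbx2, a homeobox factor, fell by 1.86 (SE 0.09). Stat3, the transcription factor downstream of LIF, was the gene that rose, by 0.89 (SE 0.16). Among the lower calls, Klf2 and Il6st turned sign under the other scalings, from -0.41 to 0.41 and 0.54 for Klf2 and from -0.53 to 0.12 and 0.25 for Il6st.

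Of the same 12 genes, 11 were higher and 0 lower than cEpi at passage 4, where 28.2% of all tested probes were higher and 28.1% lower, and the median was 2.39 against -0.02. The gene not called was Socs3, a feedback inhibitor of STAT3 signalling, at 0.21 (limma adjusted p = 0.0835). Dppa3 rose by 4.66 (SE 0.14), Klf2, a Krüppel-like factor, by 3.36 (SE 0.08), Tfcp2l1 by 3.20 (SE 0.14, at least 9.16-fold) and Nr0b1 by 2.97 (SE 0.06). Stat3, at 0.51, turned to -0.02 without normalisation. At passage 24, 11 were higher and 0 lower, against 33.3% and 32.9%, with a median of 1.81 against 0.01. Il6st, the LIF co-receptor gp130, was not called there, at -0.07 (limma adjusted p = 0.382). Pecam1, an adhesion molecule of stem cells and endothelium, rose by 3.83 (SE 0.46) and Nr0b1 by 3.80 (SE 0.06). Pecam1 was detected on only 1 of 3 cEpi arrays, so the size of its rise is uncertain.

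Against ES, the naive list was split, as the 3 genes were. At passage 4, 8 were higher and 2 lower, against 29.3% and 26% of tested probes, and at passage 24, 6 were higher and 4 lower, against 30.6% and 29%. The medians were 0.47 and 0.22, against 0.05 and 0.04 over all tested probes. Klf2 was above ES by 2.96 and 2.50 (SE 0.08) at the 2 passages, and Stat3 by 1.40 and 1.89 (SE 0.16). Tfcp2l1 was below ES by log2 differences of -0.59 and -1.57 (SE 0.14), and Dppa3 by -0.61 and -0.60 (SE 0.14). From passage 4 to passage 24, 7 naive genes were lower and 2 higher, against 18.9% and 17.2% of tested probes, and the 9 calls became 5 under both other scalings. Tfcp2l1 fell by 0.98 (SE 0.14), Il6st by 0.81 (SE 0.07) and Klf4 by 0.78 (SE 0.07), while Nr0b1 rose by 0.82 (SE 0.06).

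Genes of pluripotency in general were set beside them as a second list, with 14 of 17 genes tested. In cEpi against ES 13 were lower and 1 higher, against 29.6% and 36.6% of tested probes, with a median of -1.64. Dppa2, a factor of early embryos, fell by 4.72 (SE 0.15), Dppa5a by 3.86 (SE 0.09) and Gdf3 by 3.80 (SE 0.06). Foxd3, a forkhead repressor, was the exception: it was detected on no ES array and was higher in cEpi by 3.42 (SE 0.38, at least 10.7-fold), at passage 4 by 3.95 (at least 15.5-fold) and at passage 24 by 4.14 (at least 17.6-fold). Pou5f1 fell by 1.01 (SE 0.13) and Sox2 by 1.65 (SE 0.08), and Lin28a, at -0.25, turned to 0.20 and 0.33 under the other scalings.

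Of the general list 11 were higher than cEpi at passage 4 and 12 at passage 24, with 0 lower in both and medians of 1.27 and 1.32, where 28.2% and 33.3% of tested probes were higher. Dppa4 rose by 4.69 and 5.45 (SE 0.15) and Dppa5a by 4.55 and 4.36 (SE 0.09). Against ES 4 were higher and 4 lower at passage 4, and 6 higher and 4 lower at passage 24, with medians of 0.02 and 0.13. The shares of tested probes there were 29.3% higher and 26% lower, and 30.6% and 29%. Pou5f1 differed from ES by 0.16 and 0.22 (limma adjusted p = 0.354 and 0.189). Dppa4 was above ES by 1.36 and 2.12. Between the passages, 6 were higher and 1 lower at passage 24, against 17.2% and 18.9%. These 7 calls became 4 without normalisation and 4 without a detection filter.

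**Figure D3:**
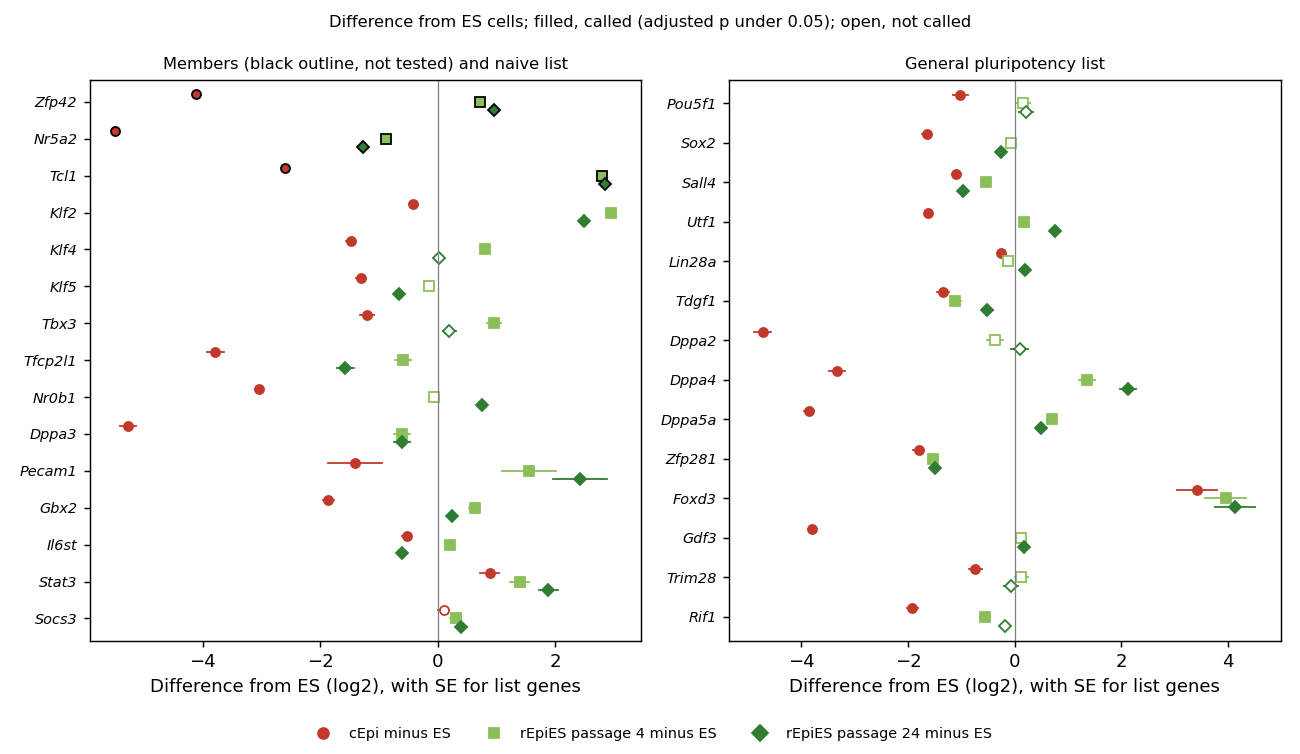
Log2 difference from ES (horizontal axis) of cEpi, rEpiES passage 4 and rEpiES passage 24 for Zfp42, Nr5a2, Tcl1 and the 12 tested naive genes (left) and 14 tested general pluripotency genes (right), with SE as lines for list genes and filled symbols for called ones. The 3 genes, outlined in black, were not tested. Nearly all cEpi symbols lie left of 0, with Foxd3 at 3.42 and Stat3 at 0.89 the called genes to the right.

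Post-implantation epiblast genes moved in both directions in cEpi. Of 16 tested genes, 8 were higher and 6 lower in cEpi than in ES, with a median of 0.24, against 36.6% and 29.6% of tested probes. Cer1, a secreted inhibitor of Nodal, BMP and WNT signals, rose by 6.60 (SE 0.47), Krt18, a keratin of simple epithelia, by 2.27 (SE 0.09), Lefty2, a Nodal inhibitor, by 1.70 (SE 0.08) and Fgf5, a classic marker of primed epiblast, by 1.55 (SE 0.06). Cer1 was detected on only 1 of 3 ES arrays, so the size of its rise is uncertain. Pou3f1, a POU factor of the epiblast, fell by 1.72 (SE 0.17). Of the 6 lower genes, Zic2 and Nodal turned sign under both other scalings and Sall2 did without normalisation. At passage 4, 3 were higher and 10 lower than cEpi, and at passage 24, 5 were higher and 9 lower, with medians of -0.73 and -0.75. Of tested probes 28.2% were higher and 28.1% lower at passage 4, and 33.3% and 32.9% at passage 24. Fgf5 differed from cEpi by -2.89 and -4.94 (SE 0.06). Cer1 differed by -5.11 (SE 0.47) at passage 4 and was at least 445-fold lower at passage 24, where it was detected on no array. All 4 differences passed the test.

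Against ES, 5 of the 16 were higher and 9 lower at passage 4, and 4 higher and 10 lower at passage 24, with medians of -0.89 and -0.88, against 29.3% and 26%, and 30.6% and 29%, of tested probes. Fgf5 lay below ES by differences of -1.34 and -3.39, and Fgf8, a growth factor of the streak, by -0.97 and -3.37 (SE 0.12). Sox3, a SOXB1 factor, lay above ES by 2.38 and 3.11 (SE 0.14). From passage 4 to passage 24, 8 were lower and 5 higher, against 18.9% and 17.2%. Krt18 fell by 3.10. Cer1 and Sall2, a zinc-finger factor, were detected on no array at passage 24 and were at least 12.9-fold and 6.53-fold lower there.

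The nuclear receptors, the family of Nr5a2, were often dim: 17 of 35 with a probe were not detected on all 3 arrays of any group, and 18 were tested. Of these, 7 were higher and 2 lower in cEpi than in ES, with a median of 0.39, against 36.6% and 29.6% of tested probes. Without cEpi replicate 2, 5 were called in place of 9, and 5 without a detection filter. Nr0b1, given above, was 1 of the 2 lower genes. Nr6a1, the germ cell nuclear factor known to repress Pou5f1 during differentiation, was detected on no ES array and rose by 2.90 (SE 0.09, at least 7.47-fold). Rarg, a retinoic acid receptor, rose by 1.40 (SE 0.53) and Esrra, an oestrogen-related receptor, by 1.20 (SE 0.11). Nr1d2, a clock repressor, was lower by a difference of -0.87, which was 0.06 without normalisation.

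At passage 4, 5 nuclear receptors were higher than cEpi and 7 lower, and at passage 24, 3 were higher and 8 lower, with medians of -0.39 and -0.53. Higher and lower shares of tested probes were 28.2% and 28.1%, and 33.3% and 32.9%. The 12 calls at passage 4 became 7 without a detection filter, and with detection required on all 12 arrays they became 5, and the 11 at passage 24 also 5. Nr2f2, the COUP-TFII receptor, fell by 2.03 at passage 4 (SE 0.35, at least 4.08-fold) and by 2.32 at passage 24. Rarg rose by 1.63 and 2.91, and Nr1d2 by 1.04 and 1.21 (SE 0.13). Nr6a1, 0.33 at passage 4, was -0.0042 or -0.21 under the other scalings. Against ES, 6 were higher and 3 lower at passage 4, and 7 higher and 4 lower at passage 24, with medians of 0.11 and 0.23, against 29.3% and 26%, and 30.6% and 29%, of tested probes. With detection on all 12 arrays the 9 calls became 3 and the 11 became 6, and the 11 became 7 in a fit of the 2 groups alone. Nr6a1 stayed above ES by 3.23 and 2.45 (at least 9.41-fold and 5.46-fold). Rarg was above ES by 3.03 and 4.31, with 1 of 3 ES arrays detected. Between the passages, 2 were higher and 4 lower at passage 24, against 17.2% and 18.9%.

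Beside Tcl1, 16 of 34 listed relatives and PI3K-AKT genes were tested. Of the relatives, Tcl1b5 was tested and passed in none of the 6 comparisons, with differences from -0.53 to 0.18 (SE 0.74). In all 7 were higher and 3 lower in cEpi than in ES, with a median of 0.19, against 36.6% and 29.6% of tested probes. Tsc2, a brake on mTOR, rose by 1.82 (SE 0.17, at least 3.53-fold), Akt1, a kinase that TCL1 binds, by 1.70 (SE 0.16) and Pik3r3, a PI3-kinase regulatory subunit, by 1.62 (SE 0.19). Foxo1, a transcription factor held out of the nucleus by AKT, fell by 1.74 (SE 0.14).

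At passage 4, 7 of these genes were higher than cEpi and 2 lower, and at passage 24, 6 were higher and 5 lower, with medians of 0.32 and 0.10, against 28.2% and 28.1%, and 33.3% and 32.9%, of tested probes. Without ES replicate 3, which enters the shared spread, 14 were called at passage 4 in place of 9, as with array weights, and 15 in a fit of the 2 groups alone. With detection on all 12 arrays the 11 calls at passage 24 became 6. Inpp5d, the SHIP1 phosphatase that removes the PI3-kinase product, was detected on no ES or cEpi array and rose by 3.00 and 4.18 (SE 0.34, at least 7.20-fold and 16.3-fold) over cEpi. Over ES it rose by 2.69 and 3.87 (at least 5.89-fold and 13.3-fold). Pik3r3 fell by 2.47 at passage 4 against cEpi and was at least 9.69-fold lower at passage 24, where it was detected on no array. Eras, a RAS protein of embryonic stem cells that acts on PI3-kinase, fell by 1.44 and 0.85 (SE 0.09). Mtor rose by 1.23 and 1.25 (SE 0.17). Against ES, 8 were higher at both passages, with 5 lower at passage 4 and 4 at passage 24, and medians of 0.64 and 0.45, against 29.3% and 26%, and 30.6% and 29%, of tested probes. With detection on all 12 arrays the 12 calls at passage 24 became 7. Akt1 was above ES by 1.33 and 1.12. From passage 4 to passage 24, 3 were higher and 3 lower, against 17.2% and 18.9%, and the 6 calls became 10 with array weights. Pik3cb, a PI3-kinase catalytic subunit, fell by 1.20 (SE 0.09).

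**Figure D4:**
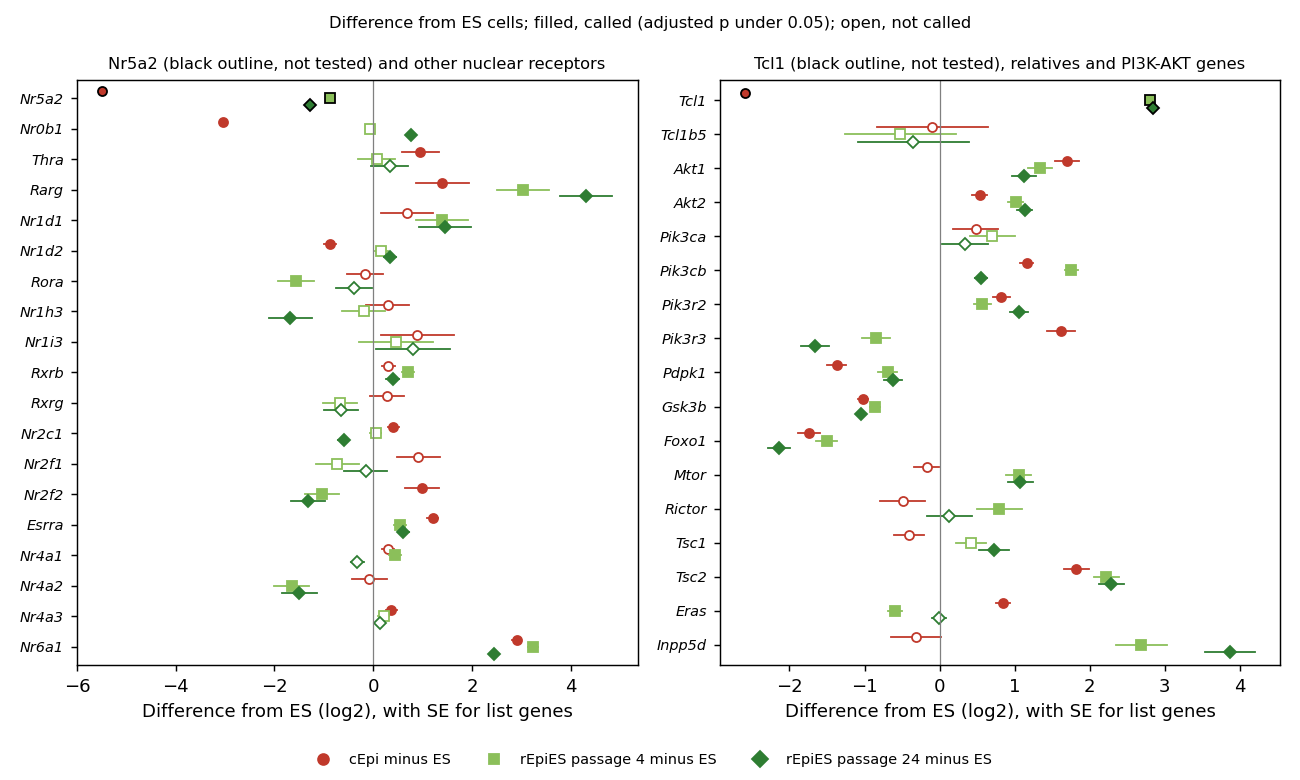
Log2 difference from ES (horizontal axis) of cEpi, rEpiES passage 4 and rEpiES passage 24 for Nr5a2 with 18 other tested nuclear receptors (left) and for Tcl1 with 16 tested relatives and PI3K-AKT genes (right), with SE as lines for list genes and filled symbols for called ones. Nr5a2 and Tcl1, outlined in black, were not tested. Nr5a2 in cEpi, at -5.49, lies left of Nr0b1, at -3.04, and Tcl1 at passage 24 lies at 2.85. Inpp5d, Nr6a1 and Tsc2 in ES and Inpp5d and Tcl1 in cEpi were not detected. Other plotted genes were also undetected in some groups, among them Nr2f2 at passage 4 and Pik3r3 at passage 24. Differences of these genes that involve a group where they were not detected rest on undetected levels.

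For Zfp42 the third list held YY1, its partners and Polycomb genes, of which 11 of 16 were tested. In cEpi against ES 4 were higher and 5 lower, with a median of -0.17, against 36.6% and 29.6% of tested probes. Eed, a core subunit of Polycomb complex PRC2, fell by 1.62 (SE 0.07) and Ezh2, its methyltransferase, by 0.87 (SE 0.07). Among the other lower calls Rlim, a ubiquitin ligase known to target REX1, was at -0.50, and turned to 0.10 without normalisation. Suz12 and Rybp, at -0.50 and -0.38, turned positive under both other scalings. At passage 4, 8 were higher than cEpi and 3 lower, and at passage 24, 7 were higher and 3 lower, with medians of 0.43 and 0.26, against 28.2% and 28.1%, and 33.3% and 32.9%. The 11 calls at passage 4 became 6 after median centring and 5 without normalisation. Suz12, another PRC2 subunit, rose by 1.82 and 1.80 (SE 0.10) and Eed by 1.61 and 1.66, while Ring1, a subunit of PRC1, fell by 1.37 and 1.58 (SE 0.15). Yy1 itself was higher than cEpi by 0.57 and 0.26 (SE 0.09), the latter -0.03 without normalisation.

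Against ES, 6 of these genes were higher and 3 lower at passage 4, and 5 higher and 4 lower at passage 24, with medians of 0.34 and 0.10, against 29.3% and 26%, and 30.6% and 29%. Eed did not pass the test against ES, at -0.01 and 0.04 (limma adjusted p = 0.88 and 0.66). Suz12 was higher by 1.33 and 1.31, and Ezh2 lower by differences of -1.17 and -1.14. Mbtd1, a Polycomb-like protein with MBT repeats, was higher by 0.93 and 1.65 (SE 0.09). From passage 4 to passage 24, 2 were higher and 1 lower, against 17.2% and 18.9%, with Mbtd1 up by 0.71. These 3 calls became 1 without normalisation, 5 with detection on all 12 arrays and 7 with array weights.

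Position was not used to choose the genes, so the 3 nearest tested genes on each side of each were compared, in the order of the RefSeq gene table. Of all tested probes 36.6% were higher and 29.6% lower in cEpi than in ES, 28.2% and 28.1% at passage 4 against cEpi, and 33.3% and 32.9% at passage 24, the shares to read these small counts against. Of the 18 neighbours 14 were called at passage 4 against cEpi, which became 8 without normalisation. On chromosome 8, Triml1, a tripartite-motif gene, is the nearest tested gene before Zfp42 and differed in the same directions. It fell by 3.29 in cEpi against ES (SE 0.13), rose by 4.22 and 4.76 against cEpi at the 2 passages, and was above ES by 0.93 and 1.48. On the other side Fam149a, Pdlim3 and Ufsp2 were lower than cEpi at passage 4, by differences of -1.66, -1.49 and -0.88, and so was Asah1, an acid ceramidase, by -0.55. Of the 6 neighbours 1 was higher and 4 lower than cEpi at each passage, and 3 were higher and 1 lower in cEpi against ES.

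On chromosome 1, 5 of the 6 neighbours of Nr5a2 were higher than cEpi at passage 4 and 4 at passage 24, with 0 lower, and 3 were lower in cEpi than in ES with 0 higher. In cEpi against ES, Zfp281, a zinc-finger factor of pluripotent cells, fell by 1.80 (SE 0.10), Aspm, a spindle protein, by 1.08 (SE 0.13) and Cdc73, a subunit of the PAF1 complex, by 0.86 (SE 0.08). Zfp281, 0.27 and 0.30 against cEpi, turned to -0.15 and -0.01 without normalisation.

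On chromosome 12, the neighbours of Tcl1 moved in both directions. In cEpi against ES 3 were higher and 0 lower, and at each passage 1 was higher and 3 lower than cEpi. Syne3, a nuclear envelope nesprin, rose in cEpi by 2.78 (SE 0.56, at least 6.85-fold) and Gskip, a regulator of GSK3, by 1.94 (SE 0.13). Papola, a poly(A) polymerase, was the neighbour higher than cEpi, by 0.78 and 1.08 (SE 0.16). The related Tcl1b5, the nearest tested gene before Tcl1 in the table, was not called, as given above.

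**Figure D5:**
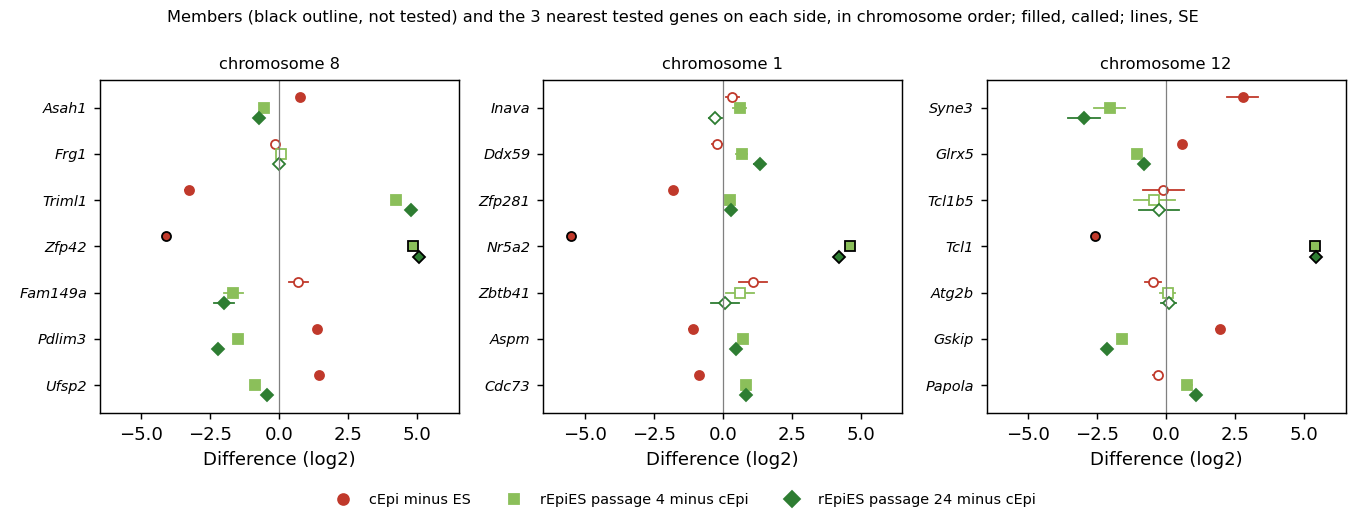
Log2 difference (horizontal axis) of cEpi from ES and of both rEpiES groups from cEpi for Zfp42, Nr5a2 and Tcl1 and the 3 nearest tested genes on each side, listed in chromosome order, with SE as lines for the neighbours and filled symbols for called ones. The 3 genes, outlined in black, were not tested. Triml1, at -3.29, 4.22 and 4.76, lies close to Zfp42, while the Tcl1 differences rest on cEpi arrays where its probe was not detected.

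Feeder fibroblast and endoderm marker sums were highest in cEpi, where the 3 genes were lowest. The summed signal of 17 feeder fibroblast markers with a probe, of 18 listed, was 548088 to 1117120 in ES, 3591190 to 4062220 in cEpi, 955917 to 1034310 at passage 4 and 549875 to 570837 at passage 24. Of 16 tested, 15 were higher in cEpi than in ES and 0 lower, and 15 were lower than cEpi at each passage. Marker counts here are to be read against the shares of all tested probes. These were 36.6% higher and 29.6% lower in cEpi than in ES. Against cEpi they were 28.2% and 28.1% at passage 4, and 33.3% and 32.9% at passage 24. Against ES they were 29.3% and 26%, and 30.6% and 29%. Thy1, a surface marker of fibroblasts, was detected on no ES array but on all 3 arrays of each other group, and its level was above that of ES at passage 4 (at least 8.25-fold) and at passage 24 (at least 3.00-fold). Against ES, 7 of the 16 feeder markers were higher and 2 lower at passage 4, and 4 higher and 8 lower at passage 24. For 11 endoderm markers of 12 listed the sum was 261892 to 284669 in cEpi against 53679 to 82362 in ES, 46272 to 51955 at passage 4 and 30242 to 31132 at passage 24, and 6 of 7 tested were higher in cEpi than in ES and 0 lower. Against ES, 2 were higher and 3 lower at passage 4, and 0 higher and 4 lower at passage 24. In cEpi, Afp, Lama1 and Apoa1 were detected on 0 arrays. Of 9 listed trophoblast markers 7 had a probe, with sums of 95043 to 108214 in cEpi, 20483 to 31631 in ES, 61045 to 64448 at passage 4 and 24892 to 26650 at passage 24. Of those 7, 4 were higher and 1 lower in cEpi than in ES, 4 higher and 0 lower at passage 4 than in ES, and 1 higher and 4 lower at passage 24 than in ES. The 1 lower in cEpi was Tfap2c, at -1.34 (SE 0.11), the direction of the 3 genes. Whether fibroblast, endoderm or trophoblast cells were present, and their part in the levels of Zfp42, Nr5a2 and Tcl1, was not tested.

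The sums of pluripotent cell markers were 942573 to 1030870 in cEpi, 1433520 to 2281200 in ES, 1437000 to 1592500 at passage 4 and 1783020 to 2087110 at passage 24, and 5 of 5 were lower in cEpi than in ES. Germ cell markers, of which 7 of 8 had a probe, had sums of 57625 to 63680 in cEpi, 38587 to 51818 in ES, 49560 to 107735 at passage 4 and 58888 to 62538 at passage 24. Of 6 tested, 4 were lower and 2 higher in cEpi than in ES, against 29.6% and 36.6% of all tested probes. At each passage 4 were higher and 2 lower than cEpi, against the shares given above. Mael, Dazl, Sycp1 and Ddx4 were the 4 higher, the direction of the 3 genes, and Mael, Dazl and Sycp1 were detected on no cEpi array. Prdm1 and Kit were the 2 lower. At passage 4 and passage 24 Prdm1 differed from cEpi by -1.83 and -2.15, and Kit by -1.17 and -2.27. Mael and Dazl were also among the genes nearest in pattern above, a choice that already fixed their direction. The 3 epiblast markers summed to 476964 to 537952 in cEpi, 164330 to 266818 in ES, 86421 to 92775 at passage 4 and 116253 to 116776 at passage 24. Of these 3, 2 were higher in cEpi than in ES and 1 was lower, Pou3f1 at -1.72. Their mean log2 level overlapped between the groups, at 15.84 to 15.87 in cEpi and 15.60 to 15.87 in ES.

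The values depend on the scaling of the arrays. The median of all tested probes in cEpi against ES was 0.15 after quantile normalisation, 0.69 after centring each array on its median and 0.81 with no normalisation, and the share of calls that were higher was 55.3%, 82.3% and 86% respectively. For passage 4 against cEpi the medians were -0.02, -0.25 and -0.45 and the shares 50.1%, 31.5% and 20.1%. For passage 24 against cEpi they were 0.01, -0.18 and -0.37, with 50.3%, 39% and 29.7%. Against ES they were 0.05, 0.35 and 0.28 at passage 4, with 52.9%, 80.5% and 76.7%, and 0.04, 0.37 and 0.31 at passage 24, with 51.4%, 75.9% and 73.1%. Under both other scalings the signs of the differences of Zfp42, Nr5a2 and Tcl1 were kept in all 6 comparisons. Zfp42 in cEpi against ES was then -3.53 or -3.40, and Nr5a2 at passage 4 against ES was -0.52 or -0.60.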

How the data were processed

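Processing began from 12 deposited array files, 1 per sample, grouped by the sample titles. Per the file headers, each holds a linear signal intensity per probe and the authors' quantile-normalised values, which lie on a log2 scale and follow the rank of the intensity within each array. The deposited signal-to-noise score gave detection at 3 or more. For cEpi and passage 4 the score and the quality code stand under each other's header, so columns were read by content. The deposited value table of the series equals the quantile-normalised log2 column (largest difference 0). The scanner software is not given in the sources used here, nor is any background correction.

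Symbols came from the platform annotation, in which 14411 probes had 1 symbol, 247 several and 18354 none here. RefSeq gene IDs (GRCm38.p6) matched 14402 of the single-symbol probes and changed 0 symbols. Tested were the 15235 probes, covering 8812 genes, that passed detection on every array of 1 or more groups. Two-sided tests used limma 3.58.1 in R 4.3.3 (lmFit, eBayes), in a single fit of 12 arrays with 8 residual and 1.53 prior degrees of freedom, no block, and Benjamini-Hochberg adjustment over all tested probes. The fit was tested on simulated data. The brightest probe stood for a gene with several. Where the dimmer group had no detected array, its level was raised to the lowest level among detected probes of each array if below it. The fold from the brighter mean is given as "at least". That floor was 7.20 to 8.01 over the arrays. Undetected readings above it, as for Tcl1 in cEpi, were left as measured, so such folds are not firm minima. The number of arrays limits the precision.

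The 3 genes, the 6 gene lists and the marker lists were chosen with earlier results of these data known. Named were the 3 genes, the 8 genes nearest to each in pattern (root mean square difference of centred log2 values over 12 arrays), the list genes with the 4 largest called changes in a comparison or called in all comparisons with cEpi, and the neighbouring genes. Others in the text, named for being uncalled or for turning sign, were chosen after their values were seen. Alternatives were median-centred and unnormalised log2 intensity, no detection filter, detection on all 12 arrays, the 2 groups alone, a replicate block, array weights and leaving out each array.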

Additional observations from a re-analysis of the deposited data

How the results depend on the processing

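Of 720 counts of called list genes across the alternatives, 697 lay within 1.5 times the count first reported, as did 112 of 114 counts over all probes. Between passages 4 and 24, 3498 probes were called after centring arrays on their median and 2912 without normalisation, against 5505, with 4402 to 6661 when single arrays were left out. In that comparison naive genes called numbered 5 under both scalings (from 9), general pluripotency genes 4 without normalisation and 4 without a detection filter (from 7), PI3K-AKT genes 10 with array weights (from 6), and YY1 partners 1 without normalisation, 5 with detection on all 12 arrays and 7 with array weights (from 3). YY1 partners called at passage 4 against cEpi numbered 6 and 5 under the 2 scalings (from 11). Nuclear receptors called in cEpi against ES were 5 without a filter (from 9) and 5 to 11 with single arrays left out, the 5 without cEpi replicate 2. At passage 4 against cEpi they were 7 without a filter and 5 with detection on all 12 arrays (from 12), and 8 to 14 with arrays left out. With detection on all 12 arrays, which leaves fewer probes, they were 5 at passage 24 against cEpi (from 11), 3 at passage 4 against ES (from 9) and 6 at passage 24 against ES (from 11), where a fit of the 2 groups alone gave 7. PI3K-AKT genes at passage 4 against cEpi were 14 with array weights and 15 with the 2 groups alone (from 9), and 9 to 14 with arrays left out, the 14 without ES replicate 3. With detection on all 12 arrays they were 6 at passage 24 against cEpi (from 11) and 7 at passage 24 against ES (from 12).

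The differences of Zfp42 under median centring and without normalisation were -3.53 and -3.40 in cEpi against ES, 4.56 and 4.36 at passage 4 against cEpi, 4.83 and 4.64 at passage 24 against cEpi, 1.03 and 0.96 at passage 4 against ES, and 1.30 and 1.24 at passage 24 against ES. Those of Nr5a2 against ES were -0.52 and -0.60 at passage 4, and -0.90 and -0.96 at passage 24. Those of Tcl1 against ES were 3.22 and 3.14 at passage 4, and 3.33 and 3.27 at passage 24. Measured against the undetected cEpi level, Tcl1 was 5.61 and 5.73 at the 2 passages under median centring, and without normalisation it was -2.27 in cEpi against ES and 0.13 between passages. With arrays left out, Tcl1 between passages ranged from -0.0019, without passage 24 replicate 1, to 0.073, so its sign there is not settled, while the other 17 differences of the 3 genes kept their signs. Neighbours called, an alternative added after the data were seen, numbered 8 at passage 4 against cEpi without normalisation (from 14). At passage 4 against ES they were 6 without a filter (from 11) and 6 to 10 with arrays left out, with 7 without ES replicate 1, 6 without passage 4 replicate 1 or 3 and 7 without passage 4 replicate 2. Between passages they were 5 under median centring, 3 without normalisation and 5 without a filter (from 8), and 4 to 10 with arrays left out, with 5 without passage 4 replicate 1 or 2 and 4 without passage 24 replicate 2. Median centring kept 6 of the 8 genes nearest in pattern to each of the 3 genes.

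The values showed no pairing by replicate number: 0 of 18 same-numbered pairs deviated together at r over 0.1 (range -0.0346 to 0.0373). Of 12 arrays, 5 correlated best with their own number. With 3 arrays a group, this cannot exclude that same-numbered arrays share a line. With the replicate number as a block, 9927 probes were called in cEpi against ES (from 10091), 8423 at passage 4 and 9947 at passage 24 against cEpi, 8223 and 8920 against ES, and 5164 between passages. The causes of these changes were not tested unless named. Nr5a2 was detected on 2 of 3 cEpi arrays and Tcl1 on 0 of 3, which limits what their cEpi levels show.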
